A study of Mus musculus with 9 samples.

Results

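The 9 genes described here encode the Hsp70 chaperones Hspa1a, Hspa1b and Hspa8, the partners that drive the Hsp70 cycle (Dnajb1, Hsph1 and Bag3), and the small heat shock proteins Hspb1, Hspb8 and Cryab. They were chosen by name, as the inducible Hsp70 genes with the small heat shock proteins and their co-chaperones, and they are 9 of 47728 genes counted in each library. Their symbols were found by Ensembl identifier, and all 9 had reads in every library. Messenger RNA was sequenced from C2C12 cells, a mouse myoblast line that forms multinucleated myotubes in culture. The groups were an Fkbp5 knockdown, an Fkbp4 knockdown and a control labelled Neg, each taken at days 0, 3 and 5, so a genotype on a given day is a single library. All cells grew in medium with fetal bovine serum before day 0, received insulin-transferrin-selenium from day 0, and were then moved to a medium the labels call DMEM with HS. How the genes were knocked down is not given in the labels, and neither is whether the libraries come from separate cultures, so p-values measure only the spread between these libraries.

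Hsp70 chaperones bind exposed hydrophobic stretches of client proteins and release them again as they hydrolyse and exchange ATP. J-domain proteins such as Dnajb1 bring clients and start the hydrolysis, and exchange factors such as Hsph1 and Bag3 release the nucleotide. Small heat shock proteins hold unfolding clients in oligomers without using ATP. Many of these genes are induced by heat shock factor 1 (Hsf1), which binds heat shock elements, arrays of the unit GAA in alternating orientation. In striated muscle, Cryab and Hspb1 bind desmin and other filament proteins, and Bag3 with Hspb8 and Hsp70 hands damaged filamin to autophagy. Fkbp4 and Fkbp5 encode FKBP52 and FKBP51, peptidyl-prolyl isomerases that bind Hsp90 through tetratricopeptide repeats.

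Letter matches to units of the heat shock element near the start sites are shown because such elements are the feature by which these genes are usually grouped. Promoters from RefSeq (GRCm38.p6), 250 bases before to 50 bases after each start site, were found for 7 of the 9 genes, not for Hspa8 and Cryab. The motif searched was GAANNTTC or TTCNNGAA, 2 units facing each other, and each reads the same on both strands. It occurred in 6 of the 7 genes, against 17.0% of 27025 genes with a promoter of the same length. These 6 include the near copies Hspa1a and Hspa1b, and the genes belong to a group named for this feature, so the share is a description and no test. Dnajb1 had no such match in this window. Each window of 30 bases below is written on the strand of its gene, and capitals mark the match.
Hspa1b, chr17:34959324-34959353, minus strand: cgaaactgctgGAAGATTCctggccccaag
Hspa1a, chr17:34972242-34972271, minus strand: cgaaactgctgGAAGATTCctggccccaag
Hspb1, chr5:135887791-135887820, plus strand: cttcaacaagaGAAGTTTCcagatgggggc
Hspb1, chr5:135887811-135887840, plus strand: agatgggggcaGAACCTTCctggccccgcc
Hspb8, chr5:116422844-116422873, minus strand: agaagccaggaGAAGTTTCtaggctcgcga
Bag3, chr7:128523603-128523632, plus strand: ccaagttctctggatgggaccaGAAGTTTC
Hsph1, chr5:149636351-149636380, minus strand: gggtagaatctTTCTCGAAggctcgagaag
Hsph1, chr5:149636287-149636316, minus strand: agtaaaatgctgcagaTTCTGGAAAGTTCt
The second Hsph1 window holds 3 units in a row (TTCNNGAANNTTC), a run that contains the shorter motif. With its reverse complement GAANNTTCNNGAA it occurred in 0.662% of the 27025 genes. The matches lie 104 to 97 bases before the start site in Hspa1a and Hspa1b, and at 117 to 110 and 97 to 90 bases before it in Hspb1. They lie after the start site in Hspb8 (bases 3 to 10) and Bag3 (bases 43 to 50). In Hsph1 the first match lies 33 to 26 bases before the start site and the run of 3 units after it (bases 37 to 49). Counted from another RefSeq start site of Hsph1, these lie 54 to 47 bases before it and at bases 16 to 28 after it. A match of letters is a description of the sequence and was not tested as a binding site.

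Hspa1a and Hspa1b are neighbouring copies on chromosome 17. Their upstream sequences of 250 bases differ at 3 bases, and the Hspa1b copy, chr17:34959239-34959488 on the minus strand, shows how the match sits in the shared promoter:
Hspa1b upstream: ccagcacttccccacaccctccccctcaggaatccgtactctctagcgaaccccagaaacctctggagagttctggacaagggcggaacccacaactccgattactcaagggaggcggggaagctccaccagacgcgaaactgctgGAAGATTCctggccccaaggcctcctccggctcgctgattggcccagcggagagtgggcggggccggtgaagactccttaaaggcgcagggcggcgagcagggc

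Depth limits the scarce transcripts. Totals ran between 3932372 and 5568486 counts a library, and 3 counts, the upper limit for a gene with no reads, correspond to 0.539 to 0.763 CPM, a count scaled to a common library total. Levels below are normalised CPM, corrected by the trimmed mean of M-values, unless a level per kilobase of exon is named. The targeted genes went the way of their labels: Fkbp5 was at 4.5, 3.2 and 4.6 normalised CPM at days 0, 3 and 5 in the Fkbp5 knockdown, against 20.1, 7.3 and 14.7 in the control. Fkbp4 was at 60.1, 27.1 and 24.0 in the Fkbp4 knockdown, against 240.4, 143.0 and 137.6 in the control. All 7 myoblast and myotube markers had reads, summing to 1092 to 9647 normalised CPM. The 4 adipocyte markers were at 0 in every library, while immune markers summed to at most 4.42 (Cd3e at 0), endothelial markers to at most 1.89 (Cdh5 at 0) and osteoblast and chondrocyte markers to at most 0.242 (Acan and Ibsp at 0). Mitochondrially encoded genes took 1.78% to 5.01% of counts in 8 libraries and 10.1% in the Fkbp5 knockdown at day 5.

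The 9 genes spanned more than 3 orders of magnitude, with the constitutive Hspa8 at the top and the inducible Hspa1a at the bottom. Together they took 0.361% to 0.653% of all counts, both extremes at day 3, in the Fkbp5 knockdown and the Fkbp4 knockdown. Averaged over the 9 libraries and divided by exon length, the levels were 852 normalised CPM per kb for Hspa8, 768 for Hspb1 and 293 for Cryab. Hspb8 followed at 83.3, Bag3 at 29.3 and Dnajb1 at 27.4, then Hsph1 at 13.3, Hspa1b at 11.6 and Hspa1a at 0.339. In this order, neighbouring genes overlapped in their ranges over the libraries, except that Hspb1 lay wholly above Cryab, Hspb8 above Bag3 and Hspa1b above Hspa1a. Exon lengths include sequence shared with other genes, and how reads with several alignments were counted is not given. Levels per kb of Hspa8, Hspb1, Hspa1b and Hspa1a, which share the most, may be too low, so the order of Hspa8 and Hspb1 is not settled. The highest library was 4.59 times the lowest for Cryab but 1.73 times for Hspb1 and 1.83 times for Hsph1.

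**Figure D1:**
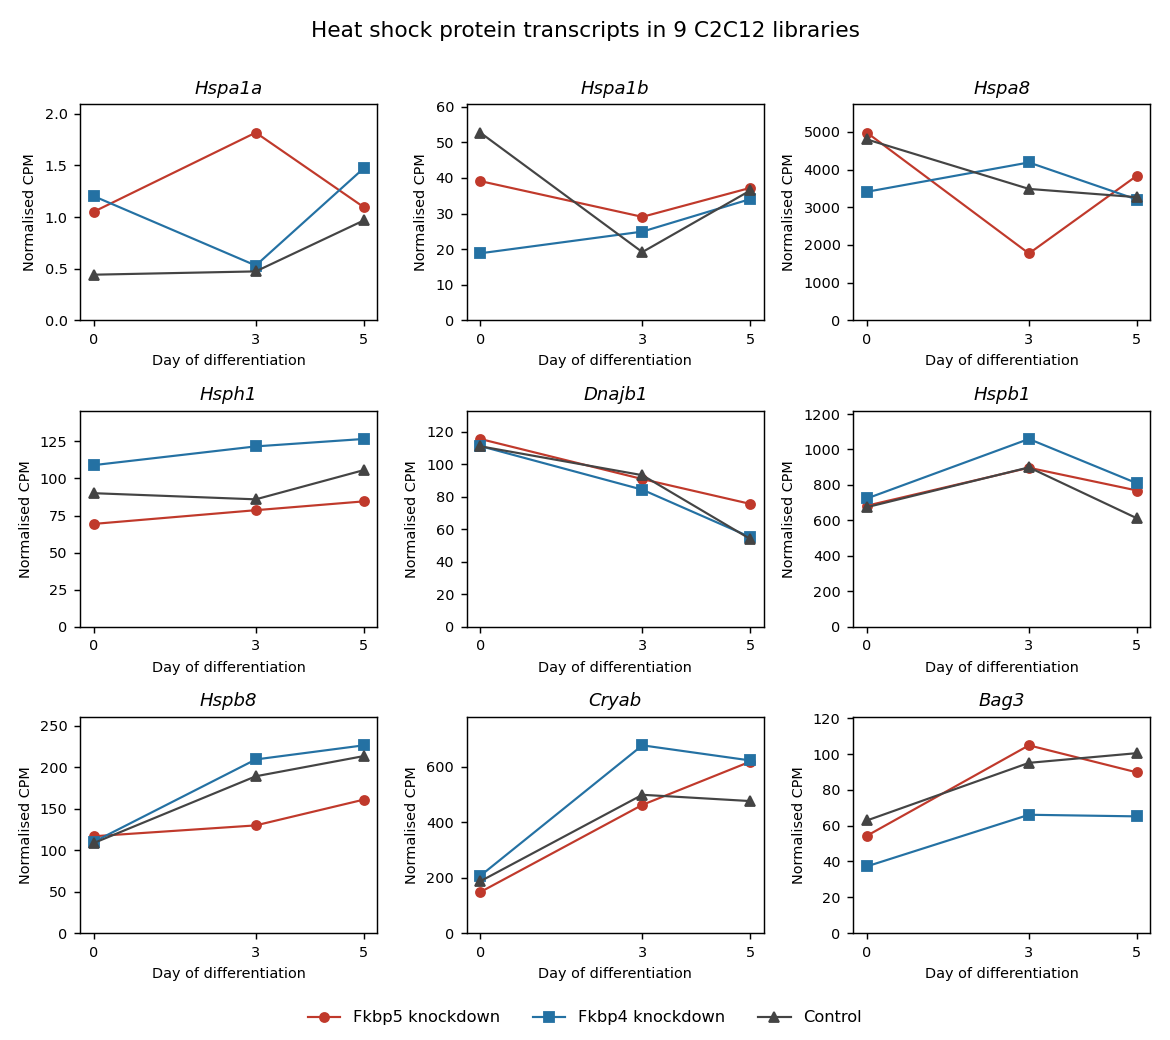
Normalised CPM (y axis, linear, from 0, with a scale for each gene) of the 9 genes at days 0, 3 and 5 (x axis) in the Fkbp5 knockdown (red circles), the Fkbp4 knockdown (blue squares) and the control (dark triangles). Each point is 1 library. Cryab, Hspb8 and Bag3 are higher at days 3 and 5 than at day 0 in every genotype, Dnajb1 declines, and Hspa8 has its lowest point in the Fkbp5 knockdown at day 3.

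Reads of Hspa1a and Hspa1b cannot be fully told apart. Of all 31-base words in their exons, 70.1% of those of Hspa1a and 68.1% of those of Hspa1b also occur in another gene, mostly in each other. Words found in no other gene number 879 in Hspa1a and 884 in Hspa1b. Even so, Hspa1a was counted with 4, 8 and 5 reads at days 0, 3 and 5 in the Fkbp5 knockdown, 6, 3 and 7 in the Fkbp4 knockdown, and 2, 2 and 4 in the control. These are 0.442 to 1.82 normalised CPM, from below the floor of 3 counts to above it, and no difference in Hspa1a was tested at this depth. Hspa1a missed the filter on low counts, and the other 8 genes passed it. Hspa1a also overlaps 564 exon bases of Gm20481, which had no reads. Others share sequence too. Hspa8 shares 44.8% of its words with copies such as Gm26825 (283 to 466 reads, against 7810 to 23703 for Hspa8). Hspb1 shares 55.4%, mostly with the pseudogene Hsp25-ps1 (2 to 5 reads). Cryab overlaps 252 exon bases of its neighbour Hspb2, and the kit does not keep strand. For Hsph1, Hspb8 and Bag3 no word was shared.

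The additive model compares genotypes over the days they share: knockdown effects are averaged over the days, and day effects over the genotypes. With a single library per genotype and day, the days stand in for replicates of a genotype, and the genotypes for replicates of a day. A knockdown effect that changes with the day therefore counts as spread in this fit and makes a call less likely. Calls were made where edgeR's quasi-likelihood test gave an adjusted p under 0.05, with adjustment by Benjamini and Hochberg over all 12844 genes that passed the filter. Fold changes are log2 values with their standard error (SE). The comparisons of the knockdowns with the control share the control libraries, and the later days share the day 0 libraries.

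In the Fkbp5 knockdown none of the 8 tested genes differed from the control. Of all genes, 2.09% were called in this comparison. Hsph1, a large Hsp70 relative that acts as an exchange factor, came nearest. Its levels at days 0, 3 and 5 were 69.3, 78.6 and 84.5 normalised CPM in the Fkbp5 knockdown, against 90.1, 85.9 and 105.6 in the control. Every Fkbp5 knockdown library lay below every control library, though narrowly, with 84.5 at day 5 in the knockdown and 85.9 at day 3 in the control. The share of all genes whose groups separate in this way was not computed, here or where ranges are compared below. The log2 fold change of Hsph1 was −0.28 (SE 0.09), with an adjusted p of 0.171 in edgeR. Hsph1 was the 1 of 8 with an unadjusted p under 0.05, against 15.8% of all genes tested. DESeq2 and limma voom called 0 of the 8 as well. Over the 8 genes the median log2 fold change was −0.04, against 0.00 over all genes tested. Cryab (−0.01), Hspa1b (−0.01) and Bag3 (−0.07) had the smallest values, and each had an SE between 0.10 and 0.26.

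The small heat shock protein Hspb8, a partner of Bag3, moved with the day in this knockdown. At day 0 it was at 116.6 normalised CPM in the Fkbp5 knockdown, against 108.4 in the control. At day 3 it was at 129.7 in the Fkbp5 knockdown and 188.9 in the control, a ratio of 0.687 between these libraries. Day 5 gave 160.8 in the Fkbp5 knockdown and 213.2 in the control, a ratio of 0.754. The knockdown and control libraries were level before differentiation and apart at both later days. The exact 95% intervals of the log2 ratios, which cover counting error only, were −0.70 to −0.39 at day 3 and −0.55 to −0.26 at day 5. As a common effect this gave −0.28 (SE 0.14, adjusted p = 0.360 in edgeR), with −0.50 (adjusted p = 0.0512) without the day 0 library of the Fkbp5 knockdown and −0.14 without its day 3 library. The change of the Fkbp5 knockdown effect between day 0 and the later days was −0.58 (SE 0.20, adjusted p = 0.962 in edgeR), in a test over 13372 genes that called 0.0374% of them and has 2 residual degrees of freedom. The markers Myog, Myh3 and Ckm were also lower in these libraries of the Fkbp5 knockdown. The muscle markers Myf5 and Actc1 were not compared by library. Des was higher, at 2898 and 4072 at days 3 and 5 in the Fkbp5 knockdown, against 2645 and 3924 in the control. Myod1 was at 111.5 and 103.8 in the Fkbp5 knockdown, against 121.2 and 107.1 in the control. The differentiation factor Myog was at 152 and 237 in the Fkbp5 knockdown, against 358 and 278 in the control. The embryonic myosin Myh3 was at 892 and 1805 at days 3 and 5 in the Fkbp5 knockdown, against 1381 and 3264 in the control. The muscle creatine kinase Ckm was at 55.9 and 100.5 in the Fkbp5 knockdown, against 98.5 and 256.7 in the control. Their part in the result was not tested.

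Hspa8, the constitutive Hsc70 that serves most Hsp70 functions in unstressed cells, had a single low library. The Fkbp5 knockdown gave 4984, 1774 and 3841 normalised CPM at days 0, 3 and 5. The control gave 4803, 3488 and 3269. The day 3 library of the Fkbp5 knockdown thus stood at 0.509 times the control of that day (log2 ratio −0.98, exact 95% interval −1.02 to −0.94), while at days 0 and 5 it was above the control. Of the Fkbp4 knockdown libraries (3412, 4191 and 3205), the day 3 one was the highest. With no second library of that day, this drop has no replicate check, and over the 3 days Hspa8 was not called (−0.17, SE 0.27, adjusted p = 0.828 in edgeR). The fitted value turned to 0.22 without that library. Gm26825, which shares words with Hspa8, was at 75.9 in the Fkbp5 knockdown at day 3 and at 67.0 in the control.

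In the Fkbp4 knockdown 1 of the 8 genes was called, Bag3, which was lower. Of all genes, 1.09% were called. Bag3 is the exchange factor that couples Hsp70 to Hspb8 and to autophagy of filament proteins. It was at 37.3, 66.1 and 65.2 normalised CPM at days 0, 3 and 5 in the Fkbp4 knockdown, against 62.9, 95.2 and 100.6 in the control. On each day the knockdown library was the lower one, although the ranges over the days overlapped. The log2 fold change was −0.63 (SE 0.10, adjusted p = 0.0194 in edgeR, 1.55-fold lower), and DESeq2 and limma voom called it too (adjusted p = 0.00307 and 0.0157). The call was lost without any 1 of the 3 Fkbp4 knockdown libraries or of the 3 control libraries, with log2 fold changes between −0.72 and −0.57 and adjusted p between 0.0601 and 0.125. Leaving out a whole day also lost it (adjusted p between 0.0996 and 0.173).

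**Figure D2:**
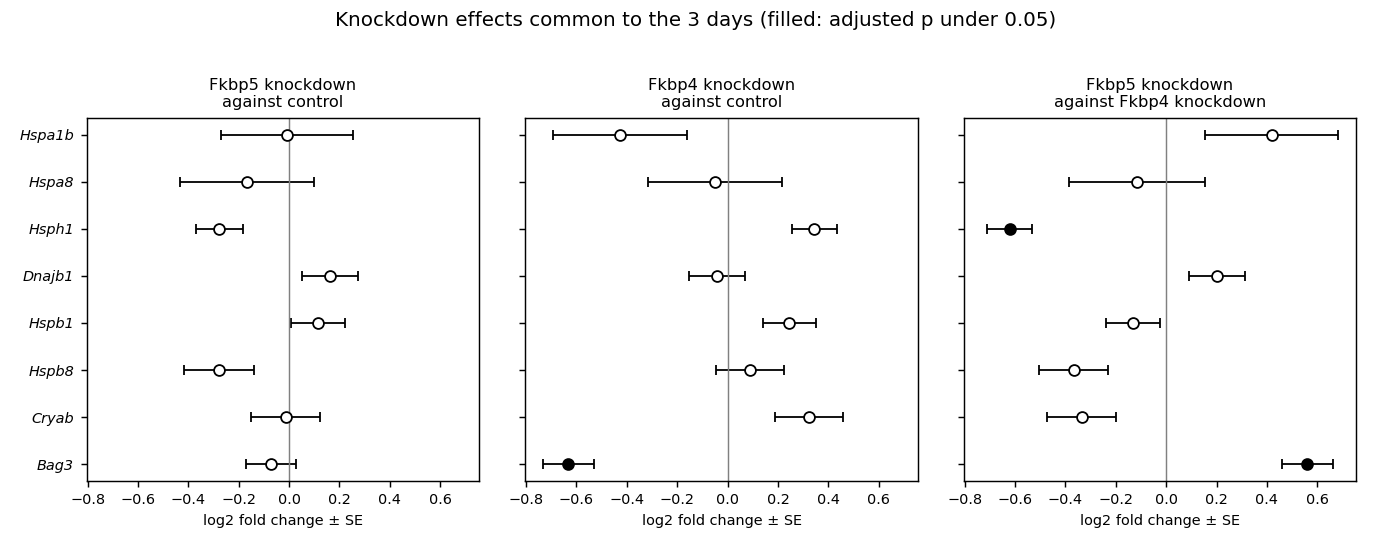
Log2 fold change with its SE (x axis) of the 8 tested genes (y axis) for the Fkbp5 knockdown against the control, the Fkbp4 knockdown against the control, and the Fkbp5 knockdown against the Fkbp4 knockdown. Filled points passed an adjusted p of 0.05 in edgeR. Bag3 is filled in the comparisons that involve the Fkbp4 knockdown, and Hsph1 in the direct comparison of the knockdowns.

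The remaining genes were not called in the Fkbp4 knockdown, but 4 of the 8, Bag3 included, had an unadjusted p under 0.05, against 16.4% of all genes tested. Hsph1 stood at 109.0, 121.6 and 126.7 normalised CPM at days 0, 3 and 5 in the Fkbp4 knockdown, against 90.1, 85.9 and 105.6 in the control. These ranges did not overlap (0.34, SE 0.09, adjusted p = 0.104 in edgeR). Cryab, a crystallin of the lens that also chaperones desmin in muscle, was at 206.2, 676.8 and 622.2 in the Fkbp4 knockdown, against 186.5, 498.5 and 475.8 in the control (0.32, SE 0.14, adjusted p = 0.278 in edgeR). Hspb1, the small heat shock protein Hsp25 of mouse, was at 723, 1059 and 809 in the Fkbp4 knockdown, against 674, 899 and 611 in the control (0.25, SE 0.11, adjusted p = 0.290 in edgeR). Both Cryab and Hspb1 were higher in the Fkbp4 knockdown on all 3 days, with ranges that overlapped between the groups. Without the control library of day 5 the values were 0.21 for Cryab and 0.15 for Hspb1. Over the 8 genes the median log2 fold change was 0.02, the same as over all genes tested.

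Hspa1b, the inducible Hsp70 copy with reads enough to compare, set the Fkbp4 knockdown apart at day 0. Its reads numbered 149, 128 and 170 at days 0, 3 and 5 in the Fkbp5 knockdown, 94, 141 and 162 in the Fkbp4 knockdown, and 239, 81 and 151 in the control. In normalised CPM these are 39.1, 29.1 and 37.2 for the Fkbp5 knockdown, 18.8, 24.9 and 34.1 for the Fkbp4 knockdown, and 52.8, 19.2 and 36.5 for the control. The control was highest at day 0 and the Fkbp4 knockdown lowest, and at day 5 the 3 libraries lay close together. At day 0 the log2 ratio to the control was −0.43 in the Fkbp5 knockdown (exact 95% interval −0.74 to −0.13) and −1.49 in the Fkbp4 knockdown (−1.85 to −1.14). Neither common effect was called (−0.01, SE 0.26, adjusted p = 0.995 for the Fkbp5 knockdown and −0.43, SE 0.27, adjusted p = 0.460 for the Fkbp4 knockdown, in edgeR). The change of the Fkbp4 knockdown effect between day 0 and the later days was 1.64 (SE 0.30, adjusted p = 0.410 in edgeR), where again 0.0374% of genes were called. Neither interaction test called any of the 8 genes in edgeR or limma voom, and 2 of them for the Fkbp5 knockdown and 1 for the Fkbp4 knockdown had an unadjusted p under 0.05 in each tool. Of all 13372 genes, 4.52% and 2.96% did so in edgeR for the Fkbp5 and the Fkbp4 knockdown. The day 0 library of the Fkbp4 knockdown also had more RNA of the markers Myog and Myh3, at 31.5 and 45.7 normalised CPM. As above, Myf5 and Actc1 were not compared by library. At day 0 Myog was at 11.3 in the Fkbp5 knockdown and 14.8 in the control, and Myh3 at 9.98 and 13.7. Des was lowest in the Fkbp4 knockdown at day 0 (851, against 1032 in the Fkbp5 knockdown and 993 in the control). In the same order, Ckm was at 2.81, 1.05 and 2.43 and Myod1 at 75.1, 67.8 and 69.5. Their part in the result was not tested.

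**Figure D3:**
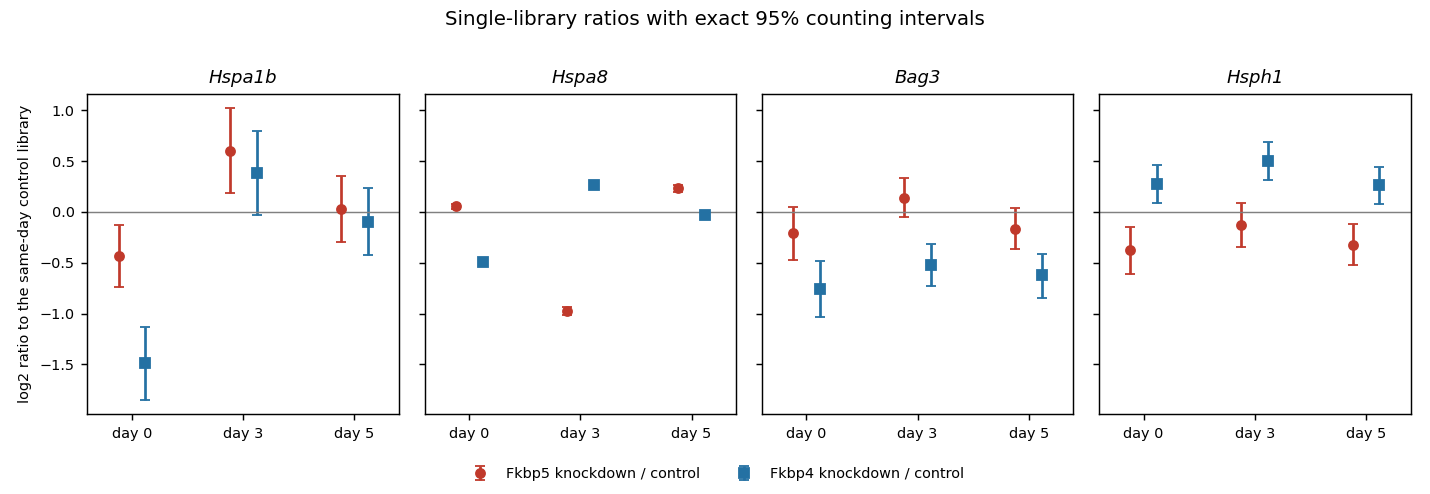
Log2 ratio of each knockdown library to the control library of the same day (y axis) at days 0, 3 and 5 (x axis) for Hspa1b, Hspa8, Bag3 and Hsph1, the Fkbp5 knockdown as red circles and the Fkbp4 knockdown as blue squares. Bars are exact 95% intervals for the counts of 2 libraries and hold no biological spread. Bag3 lies below 0 and Hsph1 above 0 in the Fkbp4 knockdown on all days, whereas Hspa1b and Hspa8 change sides between days.

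Set against each other, the knockdowns differed in Hsph1 and Bag3, with less Hsph1 and more Bag3 RNA under the Fkbp5 knockdown than under the Fkbp4 knockdown. Both genes encode exchange factors and they went opposite ways. In this comparison 12.8% of all genes were called, and 2 of the 8. Hsph1 was at 69.3, 78.6 and 84.5 normalised CPM at days 0, 3 and 5 in the Fkbp5 knockdown, against 109.0, 121.6 and 126.7 in the Fkbp4 knockdown, with no overlap. Its log2 fold change was −0.62 (SE 0.09, adjusted p = 0.00282 in edgeR), with same-day ratios of 0.636, 0.646 and 0.667. All 19 alternatives kept that call. Bag3 was at 54.4, 104.9 and 89.8 in the Fkbp5 knockdown, against 37.3, 66.1 and 65.2 in the Fkbp4 knockdown. It was higher on all 3 days (0.56, SE 0.10, adjusted p = 0.00689 in edgeR), and the call was lost only without the libraries of day 5 (adjusted p = 0.0692). The median over the 8 genes was −0.12, against −0.01 over all genes tested.

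Relative to its partner Hspb8, Bag3 separated the knockdowns within each library, where scaling has no part. For each Hspb8 read there were 0.466, 0.809 and 0.559 Bag3 reads at days 0, 3 and 5 in the Fkbp5 knockdown, 0.339, 0.316 and 0.288 in the Fkbp4 knockdown, and 0.580, 0.504 and 0.472 in the control. The Fkbp4 knockdown was lowest on every day, a description with no test. Hspb8 and Cryab themselves were not called between the knockdowns. Hspb8 gave −0.37 (SE 0.14, adjusted p = 0.105 in edgeR) and passed in 3 of the 19 alternatives, among them without the Fkbp5 knockdown library of day 0 (−0.58, adjusted p = 0.0102). Cryab gave −0.34 (SE 0.14, adjusted p = 0.132 in edgeR) and passed in 3 of the 19 alternatives. Among these was the fit without the Fkbp5 knockdown library of day 5 (−0.53, adjusted p = 0.0494), the library with 10.1% mitochondrial counts.

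Of 7 lists of related genes, none held a gene that edgeR called between either knockdown and the control. At an unadjusted p under 0.05 a list had 0 to 5 genes in the Fkbp5 knockdown and 1 to 4 in the Fkbp4 knockdown, with 4 to 16 genes tested a list. Of all genes, 15.8% and 16.4% had such a p. Between the knockdowns 11 listed genes were called, beside 12.8% of all genes, and Hspa4l among them stands on 2 lists. Of 9 tested Hsp70 family genes 3 were lower under the Fkbp5 knockdown, namely Hspa4l (−0.57) and Hspa4 (−0.40), relatives of Hsph1, and the testis-enriched Hspa2 (−0.48). Among 13 J-domain genes 3 were lower, Dnajc7 (−0.52), Dnajb5 (−0.52) and Dnaja2 (−0.38). Of the 9 exchange factors and regulators Bag6 was lower (−0.49) and St13, the Hsp70-interacting protein Hip, higher (0.36). The mitochondrial chaperonin gene Hspe1 was higher (0.42), and the scarce factor Hsf4 (−1.30) and the segregase Vcp (−0.60) were lower. Median log2 fold changes between the knockdowns lay between −0.26 for the muscle partners and 0.02 for the exchange factors and regulators, against −0.01 over all genes. The other small heat shock proteins are left out of this range, as Hspb3 and Hspb7 had few or no reads at day 0.

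During differentiation the members took different courses. RNA of the small heat shock proteins Cryab and Hspb8 and of Bag3 was higher at days 3 and 5 than at day 0, and that of the J-domain protein Dnajb1 was lower. At day 3 against day 0, 4 of the 8 genes were higher and 1 lower. Of all genes, 52.2% were called in that comparison, 26.4% higher and 25.8% lower. At day 5 against day 0 again 4 were higher and 1 lower, with 57.9% of all genes called, 29.3% higher and 28.6% lower. The median log2 fold change over the 8 genes was 0.27 at day 3 and 0.15 at day 5, against 0.00 and 0.01 over all genes. With so many genes called, such counts do not set the members apart. Since these are bulk cultures, a larger share of cells that express a gene cannot be told apart from more RNA per cell.

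Cryab had the largest day effect of the 8 genes. Its levels at days 0, 3 and 5 were 147.6, 462.0 and 618.3 normalised CPM in the Fkbp5 knockdown, 206.2, 676.8 and 622.2 in the Fkbp4 knockdown, and 186.5, 498.5 and 475.8 in the control. All later libraries exceeded all day 0 libraries. The log2 fold change was 1.59 at day 3 (SE 0.14, adjusted p = 6.12e-06) and 1.67 at day 5 (SE 0.14, adjusted p = 3.35e-06), both against day 0 in edgeR. At day 5 against day 3 the log2 ratio of Cryab was 0.42 in the Fkbp5 knockdown (exact 95% interval 0.34 to 0.50), −0.12 in the Fkbp4 knockdown and −0.07 in the control. That difference between genotypes was not tested. The muscle marker Des, the desmin that Cryab binds, had log2 fold changes of 1.60 and 2.05 in the same comparisons; its part in the result was not tested.

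Hspb8 and Bag3 followed Cryab at smaller size. Hspb8 was at 116.6, 129.7 and 160.8 normalised CPM at days 0, 3 and 5 in the Fkbp5 knockdown, 109.8, 209.2 and 226.2 in the Fkbp4 knockdown, and 108.4, 188.9 and 213.2 in the control. All later libraries lay above all day 0 libraries, the Fkbp5 knockdown ones by the least. Its log2 fold change was 0.63 at day 3 (SE 0.14, adjusted p = 0.00314) and 0.82 at day 5 (SE 0.14, adjusted p = 0.000471) in edgeR. At day 5 against day 0 the single-library ratio was 1.38 in the Fkbp5 knockdown, 2.06 in the Fkbp4 knockdown and 1.97 in the control. Bag3 was higher at day 3 by 0.79 (SE 0.10, adjusted p = 8.63e-05) and at day 5 by 0.73 (SE 0.10, adjusted p = 0.00012), with all later libraries of a genotype above its day 0 library. For both genes every alternative kept both calls.

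Hspb1 and Dnajb1 took other courses. Hspb1 was at 683, 897 and 768 normalised CPM at days 0, 3 and 5 in the Fkbp5 knockdown, 723, 1059 and 809 in the Fkbp4 knockdown, and 674, 899 and 611 in the control, with its highest value at day 3 in every genotype. It was higher at day 3 (0.45, SE 0.11, adjusted p = 0.00471 in edgeR), a call lost without the Fkbp4 knockdown (adjusted p = 0.0694). At day 5 it was not called against day 0 (0.07, SE 0.11, adjusted p = 0.622 in edgeR). Dnajb1, the J-domain partner of inducible Hsp70, was at 115.6, 90.9 and 75.6 in the Fkbp5 knockdown, 111.2, 84.3 and 55.1 in the Fkbp4 knockdown, and 111.0, 93.3 and 53.9 in the control. It was lowest at day 5 in all genotypes. Its log2 fold change against day 0 was −0.33 at day 3 (SE 0.11, adjusted p = 0.0256 in edgeR) and −0.88 at day 5 (SE 0.11, adjusted p = 6.85e-05 in edgeR). The day 5 call held in all 19 alternatives, and the day 3 call in 12 of them, missed in DESeq2 (adjusted p = 0.0554) and without the day 0 or the day 3 library of the Fkbp4 knockdown, the day 3 library of the Fkbp5 knockdown or the day 0 library of the control (adjusted p between 0.0813 and 0.107). It was also missed without all libraries of the Fkbp4 knockdown (0.138) or of the control (0.0745).

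At day 5 against day 3, 1 of the 8 genes was called, with 6.16% of all genes called. Dnajb1 was the one, lower at day 5 (−0.55, SE 0.11, adjusted p = 0.0191 in edgeR). It kept the call in 13 of 19 alternatives and lost it without the day 3 or day 5 library of the Fkbp4 knockdown or of the control (adjusted p between 0.0751 and 0.118), and without all libraries of the Fkbp4 knockdown (0.128) or of the control (0.256). Hspb1 was at −0.39 (SE 0.11, adjusted p = 0.0592 in edgeR) and passed in DESeq2 (0.0156) and limma voom (0.0472). For Hsph1 the rise at day 5 against day 0 was small (0.24, SE 0.09, adjusted p = 0.0402 in edgeR) and held in 6 of 19 alternatives, missed in DESeq2 (adjusted p = 0.131) and without any of 7 single libraries, that is the 3 of the Fkbp4 knockdown, days 0 and 5 of the Fkbp5 knockdown and days 0 and 5 of the control (adjusted p between 0.0522 and 0.129). It was missed as well without the low-count filter (0.111), without all libraries of the Fkbp5 knockdown (0.0853), the Fkbp4 knockdown (0.145) or the control (0.124), and without the Fkbp5 knockdown library of day 5 and mitochondrial genes (0.0783). Hspa8 and Hspa1b were not called at any day, and Hspa1b gave −0.53 at day 3 (SE 0.27, adjusted p = 0.123 in edgeR) and 0.01 at day 5 against day 0. Hspa8 gave −0.50 at day 3 (SE 0.27, adjusted p = 0.141 in edgeR) and −0.35 at day 5 against day 0 (SE 0.26, adjusted p = 0.275 in edgeR). Without the day 0 library of the Fkbp4 knockdown, both were called lower at day 3, Hspa1b at −0.91 (adjusted p = 0.00405) and Hspa8 at −0.79 (adjusted p = 0.0434). Hspa8 was called as well without the day 3 library of that knockdown (−0.87, adjusted p = 0.0163). At day 3 against day 0, Hspa1b passed in 3 of 20 alternatives and Hspa8 in 4 of 19. Hspa8 also passed at day 5 against day 0 in 2 of 19, and Hspa1b at day 5 against day 3 in 1 of 20.

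**Figure D4:**
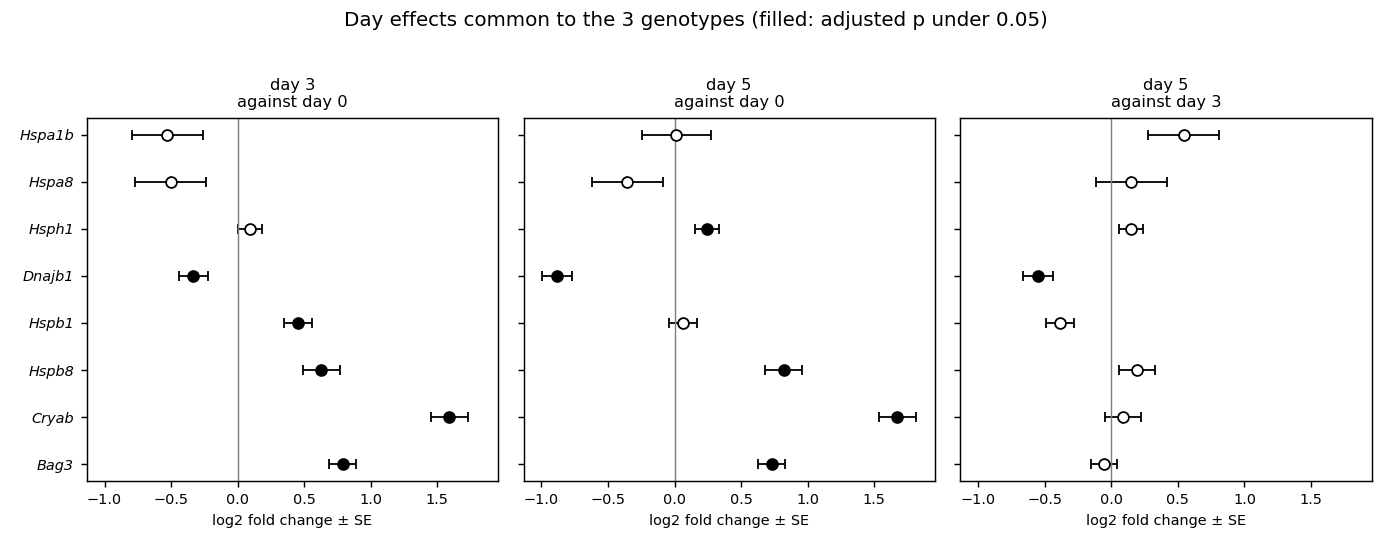
Log2 fold change with its SE (x axis) of the 8 tested genes (y axis) for day 3 against day 0, day 5 against day 0 and day 5 against day 3, common to the 3 genotypes. Filled points passed an adjusted p of 0.05 in edgeR. Cryab lies farthest to the right against day 0 (1.59 and 1.67), and Dnajb1 is on the lower side in all 3 panels.

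Of 6 other small heat shock protein genes 4 passed the filter on low counts. Hspb3 and Hspb7 passed only through the later days, so their calls and the list's median are not given. Hspb7, a heart and muscle member of the family, was at 0.788, 9.54 and 35.3 normalised CPM at days 0, 3 and 5 in the Fkbp5 knockdown, 0.801, 4.60 and 18.7 in the Fkbp4 knockdown, and 0.442, 8.28 and 56.3 in the control. The day 0 values rest on 3, 4 and 2 reads in the Fkbp5 knockdown, the Fkbp4 knockdown and the control. Hspb2, whose gene adjoins Cryab, was higher by 2.32 at day 3 and 2.42 at day 5 against day 0, with 13.0 normalised CPM at day 0 and 69.9 at day 5 on average. Hspb3 had 0 reads in the 3 day 0 libraries and 14, 23 and 18 reads at day 5 in the Fkbp5 knockdown, the Fkbp4 knockdown and the control, at least 5.98-fold higher against a floor of 3 counts a library. Hspb6 was lower, with −0.43 at day 3 (adjusted p = 0.0426 in edgeR) and −0.86 at day 5 (adjusted p = 0.0012).

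No listed J-domain gene other than Dnajb1 was called lower against day 0. Of 13, 9 were higher and 0 lower at day 3, and 11 were higher and 0 lower at day 5 against day 0 in edgeR. The median at day 5 was 0.55, against 0.01 over all genes tested. Over all genes, 26.4% were called higher and 25.8% lower at day 3. At day 5 these shares were 29.3% and 28.6%. Dnajb5 was higher by 1.92, the endoplasmic reticulum protein Dnajb9 by 1.43, Dnaja4 by 1.14 and Dnajb2 by 1.03 at day 5. Of the Hsp70 family, Hspa2 was higher at day 5 (0.81) while Hspa9, the mitochondrial Hsp70 (−0.33), Hspa13 (−0.45) and Hspa4l (−0.26) were lower, and the median of the 9 was −0.15. Among exchange factors and regulators Bag1 (0.85), Sil1 (0.68), which serves the endoplasmic reticulum, and Bag6 (0.37) were called higher and none of the 9 was called lower at day 5. Only these 3 of the 9 had a log2 fold change above 0 at day 5, and the median was −0.06. At day 3, 3 of the 9 were called higher and 1 lower, with a median of −0.11.

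Further targets of Hsf1 were mostly lower during differentiation. Hsf1 itself was higher (0.39 at day 3 and 0.34 at day 5, adjusted p = 0.00478 and 0.00865 in edgeR). Of 16 such genes 3 were higher and 9 lower at day 3, and 2 higher and 10 lower at day 5. Their medians were −0.43 and −0.51, against 0.00 and 0.01 over all genes tested. In the same comparisons 26.4% of all genes were higher and 25.8% lower at day 3, with 29.3% and 28.6% at day 5. The mitochondrial chaperonin genes Hspe1 (−1.60) and Hspd1 (−1.37), the cytosolic chaperonin subunit Cct5 (−0.92) and Cacybp (−0.92) had the lowest values at day 5. Of 9 muscle partners of Bag3 and the small heat shock proteins, 5 were higher and 2 lower at day 3, the lower ones being Sqstm1 (−0.47), an autophagy receptor, and the deacetylase Hdac6 (−0.44). At day 5 there were 6 higher and 0 lower, led by Synpo2 (2.50), which carries the Bag3 autophagy complex, Des (2.05) and the Bag3 client Flnc (1.78).

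**Figure D5:**
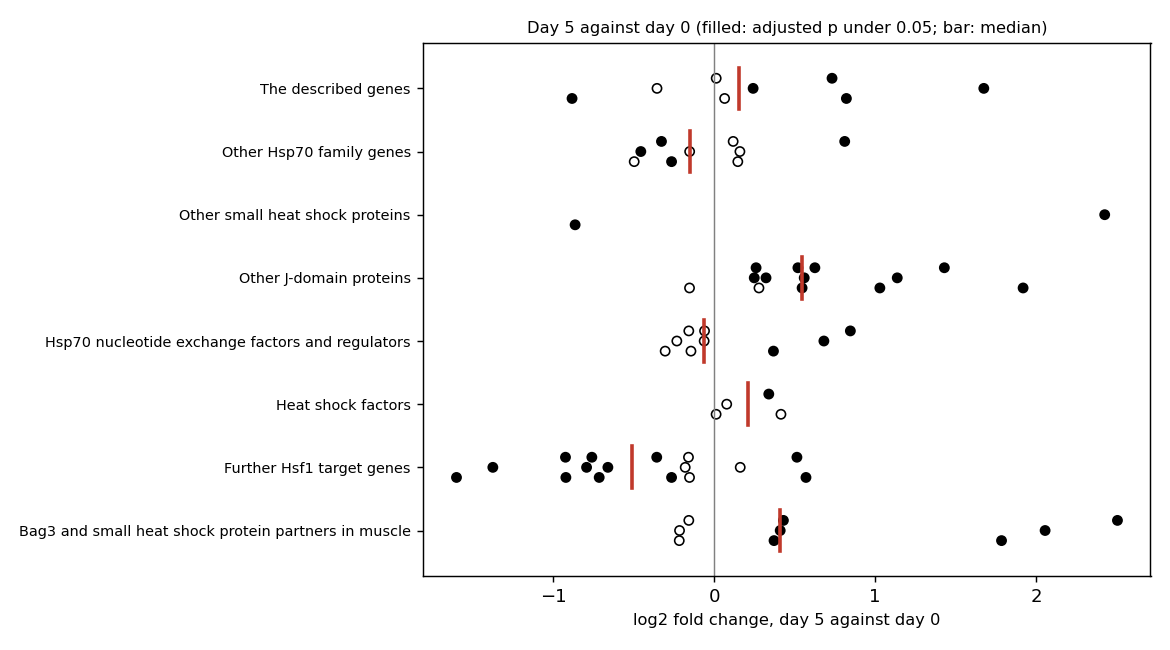
Log2 fold change at day 5 against day 0 (x axis) of every tested gene in the described set and in 7 lists (y axis), from the fit over the 3 genotypes. Filled points passed an adjusted p of 0.05 in edgeR, and bars are list medians. Hspb3 and Hspb7, at or near 0 reads at day 0, are left out, and the other small heat shock proteins have no bar. The J-domain genes lie mostly to the right of 0, and the further Hsf1 targets mostly to the left.

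Across the 9 libraries the members did not form 1 pattern. On log2 CPM, Cryab and Hspb8 had a Pearson correlation of 0.85, Dnajb1 ran against both (−0.84 with Hspb8 and −0.73 with Cryab), and Bag3 had 0.62 with Cryab. Hspa1b and Hspa8 had 0.32. These 9 points share days and genotypes, so the values are descriptions. The genes most like each called member were Apod (0.99) and Xaf1 (0.99) for Cryab, Slc38a9 (0.99) and Pdha1 (0.98) for Hspb8, and Atf7 (0.97) and Ext1 (0.97) for Bag3. Rnf220 (0.97) was among those for Hsph1. For Dnajb1 they were the pseudogene Gm15710 (0.98) and Mphosph6 (0.97), and for Hspb1 Lta4h (0.94) and Mest (0.92).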

How the data were processed

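For each of 9 libraries the authors deposited unnormalised counts by Ensembl identifier. Per the labels' protocols, polyA RNA went into TruSeq RNA v2 libraries, a kit that does not keep strand, read on a HiSeq2500. The submitters' processing notes name CASAVA 1.8, HISAT2 2.0.2, Subread, featureCounts 1.4.6 and mm10. The annotation release, strand setting and treatment of reads with several alignments are not given in the sources used here. Of 47728 identifiers, 47309 matched GENCODE M21.

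Counts were analysed with edgeR 4.0.16 in R 4.3.3 (filterByExpr, TMM factors 0.942 to 1.037, quasi-likelihood test, genotype + day, biological coefficient of variation 0.126, residual degrees of freedom 4). SE is the log2 fold change over the square root of F. Same-day ratios carry exact conditional binomial 95% intervals for counting error only, and reads without molecular identifiers are not independent molecules. Alternatives used DESeq2 1.42.0, limma 3.58.1, other filters and left-out libraries. Scripts were tested on simulated data. The named genes were the members, both targets, at most 4 called genes per list and 2 similar genes per called member; some of these are not reported here. Members and lists were chosen with earlier results of these data known. Day, which the genotypes share, is a term of the fit, and the labels give no other number that pairs libraries.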

Additional observations from a re-analysis of the deposited data

Results flagged for a closer look

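Hspa1b went in opposite directions from day 0 to the later days. In the Fkbp4 knockdown both later libraries were above day 0 (log2 ratios 0.40 at day 3, exact 95% interval 0.02 to 0.80, and 0.86 at day 5, 0.48 to 1.24). The Fkbp5 knockdown gave −0.43 at day 3 and −0.07 at day 5. In the control both were below day 0 (−1.46 at day 3, −1.84 to −1.09, and −0.53 at day 5, −0.84 to −0.23). The change of the Fkbp4 knockdown effect was 1.64 and missed the threshold (SE 0.30, adjusted p = 0.410 in edgeR). It had an adjusted p of 6.49e-05 without the low-count filter, where 95 genes were called instead of 5. All 4 ratios rest on 81 to 239 reads a library, and the day 0 libraries are 1 per genotype.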

How the results depend on the processing

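Against 268 genes called for the Fkbp5 knockdown versus the control, 866 were called without the low-count filter, 128, 41 and 36 without days 0, 3 and 5, and 48 without its day 5 library and mitochondrial genes, an alternative chosen after seeing the data. Leaving out 1 library gave 40 to 296. For the Fkbp4 knockdown versus the control (140) the counts were 228 with DESeq2, 690 unfiltered, 86, 4 and 12 without days 0, 3 and 5, and 337 with only both genotypes, and 4 to 259 with 1 library left out. Between the knockdowns (1650) they were 806 and 250 without days 0 and 5, 961 with only both genotypes and 485 in the added alternative, and 487 to 2106 with 1 library left out. Day 5 against day 3 (791) gave 1578 unfiltered, 333 without the Fkbp4 knockdown, 179 without the control, 487 in the added alternative and 232 to 924 with 1 library left out. The interaction tests (5 each) gave 0 and 1 with limma voom and 107 and 95 unfiltered for the Fkbp5 and the Fkbp4 knockdown. Causes were not tested.

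Signs turned in 43 of the members' alternatives, all of values that were not called. For the Fkbp5 knockdown against the control, Hspa1b gave 0.0043 with DESeq2, 0.017 with limma voom, 0.29 without day 0, 0.023 with only both genotypes, 0.061 in the added alternative, 0.021 summed with Hspa1a and −0.29 to 0.43 with 1 library left out. Hspa8 gave 0.14 without day 3 and −0.42 to 0.22 with 1 library left out. Cryab gave 0.14 and 0.030 without days 0 and 3 and −0.21 to 0.11 with 1 library left out. For the Fkbp4 knockdown against the control, Hspa1b (0.12) and Hspa8 (0.14) turned without day 0 and Dnajb1 (0.0076) without day 3. With 1 library left out, Hspa8 gave −0.45 to 0.22, Dnajb1 −0.13 to 0.035 and Hspb8 −0.010 to 0.22. Between the knockdowns Hspa8 gave 0.40 without day 3 and −0.41 to 0.30 with 1 library left out. At day 5 against day 0, Hspa1b gave −0.33 without the Fkbp4 knockdown and −0.36 to 0.44 with 1 library left out, and Hspb1 −0.0034 to 0.18. At day 5 against day 3, without the Fkbp5 knockdown, Hspa8 gave −0.26, Cryab −0.10 and Bag3 0.022, and in the added alternative Hspa8 gave −0.042 and Cryab −0.11. With 1 library left out, Hspa8 gave −0.26 to 0.54, Cryab −0.11 to 0.20 and Bag3 −0.14 to 0.023.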
